A study of Mus musculus with 2 samples.

Results

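Integrins and laminins form the contact between cells and the basement membrane, and their genes were followed here through the cells of injured mouse muscle. Members were taken by name: every listed gene whose whole symbol is that of an integrin alpha subunit (Itga), an integrin beta subunit (Itgb) or a laminin alpha, beta or gamma chain (Lama, Lamb, Lamc). The rule found 36 of 19169 genes, of which 26 encode integrin subunits (18 alpha and 8 beta) and 10 encode laminin chains (4 alpha, 3 beta and 3 gamma). It used no measured value. The muscle was the gastrocnemius of male mice on a C57BL/6J background on day 14 after injection of CTX (cardiotoxin), a venom toxin that kills muscle fibers and leaves stem cells to rebuild them. One library was labelled WT and the other GSDME-KO (KO below). Gsdme encodes gasdermin E, which opens pores in the membrane of dying cells. The paper reports purchased WT mice and also littermates with the KO or the WT allele, bred from heterozygotes. Which of these WT mice gave the library is not stated. Each genotype had 5 mice. Whether they were pooled into its library is not stated, nor is their age. Both genotypes received CTX, so no uninjured muscle was compared.

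A laminin is a trimer of 1 alpha, 1 beta and 1 gamma chain. It is secreted and assembles into the sheet of basement membrane around muscle fibers, vessels and nerves, where type IV collagen, nidogen and perlecan (Hspg2) join it. An integrin is a dimer of 1 alpha and 1 beta subunit in the cell membrane, and the pair decides the ligand. The alpha subunits encoded by Itga3, Itga6 and Itga7 bind laminins, those of Itga1, Itga2, Itga10 and Itga11 bind collagens, and those of Itga5, Itga8 and Itgav bind proteins with an RGD motif such as fibronectin. Itgal, Itgam, Itgax and Itgad encode partners of the leukocyte beta 2 subunit, Itgb2. In skeletal muscle the laminin with the alpha 2 chain and the integrin with the alpha 7 subunit are best known, since loss of either causes muscular dystrophy.

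In the order WT, KO, the libraries held 6354 and 7078 cells, with 44758518 and 50930009 UMIs (unique molecular identifiers, which count RNA molecules) in all and medians of 5740 and 5962.5 UMIs per cell. Both libraries held cells of low depth (686 and 633 cells under 1000 UMIs), and 4 barcodes occurred in both. With 1 library per genotype there was no replicate, no test between genotypes and no p-value; every 95% interval below covers counting error only. Gsdme itself was read at 5.03 CPM (UMIs per 1000000 UMIs; interval, 4.39 to 5.73) and 4.65 CPM (4.08 to 5.28), so its RNA did not tell the libraries apart beyond counting error, and all directions rest on the labels. All further pairs of values keep the order WT, KO. A level summed over cells cannot tell fewer expressing cells from less RNA per cell. Since these libraries were read from the 5′ end of each RNA and not scaled by length, a gene is compared with itself across cells and not with other genes.

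Cells were clustered without the 36 members, and clusters were named from marker genes. At least 50 cells per library were found for 11 names: FAP-like (fibro-adipogenic progenitors, the fibroblasts of muscle; 1686 and 2152 cells), tendon-like (404 and 357), endothelial-like (1186 and 1187), lymphatic-like (83 and 80), pericyte-like (326 and 381), smooth muscle-like (192 and 229), MuSC-like (muscle stem cells; 248 and 248), Schwann-like (195 and 152), macrophage-like (827 and 1005), dendritic-like (116 and 127) and T cell-like (81 and 86). Clusters that stayed without a name held 14.3% and 13.2% of the cells. Some names need care: the 7 endothelial markers stood in pericyte-like cells at a median of 0.678 and 0.678 times their level in endothelial-like cells, and the 7 pericyte markers were higher in smooth muscle-like cells than in pericyte-like cells, by a median of 3.41 and 3.18 times. Pericyte-like cells also had medians of 13104 and 13030 UMIs per cell, against 4696 and 4341 in endothelial-like cells. Whether they were droplets that paired a pericyte with an endothelial cell was not tested. Of the 36 members, 32 had at least 100 UMIs over both libraries in 1 or more of these types. The other 4 (Lamb3, Itgb6, Itgad and Itgae) had 4 to 74 UMIs in the type where they were read most.

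Matched by symbol, 23 of the 36 members had a RefSeq window before the start of transcription (26 windows in all). Itgb1 was read in every type and Itga1 was high in vessels. Lama5 was high in endothelial-like and smooth muscle-like cells, and Itgam in macrophage-like cells. The windows of these 4 genes are shown because their distributions contrast. Each is the 250 bases before the start on the gene's own strand (build GRCm38.p6): chr8:128685404-128685653 (+) for Itgb1, chr13:115101965-115102214 (-) for Itga1, chr2:180225860-180226109 (-) for Lama5 and chr7:128062390-128062639 (+) for Itgam. Capitals mark GGGCGG, the GC box read by Sp1, and GAGGAA, the core read by the myeloid factor PU.1, each on either strand.
Itgb1: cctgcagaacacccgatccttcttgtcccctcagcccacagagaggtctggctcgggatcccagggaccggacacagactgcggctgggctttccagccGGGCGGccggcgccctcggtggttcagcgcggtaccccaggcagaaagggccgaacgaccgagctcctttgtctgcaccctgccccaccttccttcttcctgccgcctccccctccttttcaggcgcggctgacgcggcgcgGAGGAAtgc
Itga1: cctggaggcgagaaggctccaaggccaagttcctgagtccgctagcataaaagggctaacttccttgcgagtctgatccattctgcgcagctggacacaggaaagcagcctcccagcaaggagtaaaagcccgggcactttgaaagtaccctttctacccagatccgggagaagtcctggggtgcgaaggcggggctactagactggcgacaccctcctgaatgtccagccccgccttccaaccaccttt
Lama5: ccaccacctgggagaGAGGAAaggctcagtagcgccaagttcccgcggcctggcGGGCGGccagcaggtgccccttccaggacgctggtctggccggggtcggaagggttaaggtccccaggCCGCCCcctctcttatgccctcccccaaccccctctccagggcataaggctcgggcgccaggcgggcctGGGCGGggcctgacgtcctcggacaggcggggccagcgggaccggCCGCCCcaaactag
Itgam: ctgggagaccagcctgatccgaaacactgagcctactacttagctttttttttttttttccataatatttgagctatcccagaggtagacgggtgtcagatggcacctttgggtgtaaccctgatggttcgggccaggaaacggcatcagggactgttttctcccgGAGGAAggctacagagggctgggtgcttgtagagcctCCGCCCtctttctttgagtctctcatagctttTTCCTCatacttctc
The GC box occurred 4 times before Lama5 and once before Itgb1 and Itgam, and neither set of letters occurred in the window of Itga1. The GAGGAA letters stood 84 and 15 bases before the start of Itgam, but also in the windows of Itgb1 and Lama5. Of all 32851 windows of the same length, 32.7% held the GC box and 23.3% held GAGGAA. Of the 23 matched members, 8 and 13 held them in any of their 26 windows, a count by gene and not by window. No match overlapped another, and the matches are letters in a window, not binding sites.

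Laminin chains were read mainly in stromal, vascular and Schwann-like cells. Lama2, the alpha chain of the laminin around muscle fibers, stood at 530 and 434 CPM in FAP-like cells, at 231 and 216 in smooth muscle-like cells, at 142 and 188 in MuSC-like cells and at 119 and 104 in Schwann-like cells. In macrophage-like and endothelial-like cells it stood at 5.31 to 7.11 CPM. FAP-like cells were thus the highest in both libraries, at 2.30 and 2.01 times the next type. Lamb1, a beta chain, was also highest in FAP-like cells, with 523 and 421 CPM in FAP-like, 328 and 308 in Schwann-like and 242 and 274 in lymphatic-like cells. Lamc1, the gamma chain of most laminins, stood at 581 and 548 CPM in FAP-like cells and at 184 to 305 in endothelial-like, lymphatic-like, pericyte-like, smooth muscle-like, MuSC-like and Schwann-like cells. Lamb2, the other beta chain, did not separate smooth muscle-like cells (400 and 291 CPM) from FAP-like cells (382 and 342): the intervals overlapped in the library labelled WT (344 to 462 and 372 to 393) and in the library labelled KO (248 to 340 and 334 to 351).

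The other alpha chains had other sources. Lama4, the alpha chain of vessel and nerve laminins, was highest in lymphatic-like cells (389 and 419 CPM) and stood at 322 and 327 in FAP-like, 213 and 257 in endothelial-like and 206 and 224 in Schwann-like cells. Lama5 stood at 0.838 and 0.702 CPM in FAP-like cells, against 115 and 110 in endothelial-like and 120 and 80.4 in smooth muscle-like cells. Lama3, a chain of epithelial laminins, was highest in MuSC-like cells (14.1 and 23.3 CPM), at 1.23 and 1.86 times the next type. It stood at 11.4 and 9.91 in endothelial-like and 1.07 and 0.702 in FAP-like cells. Lamc3 was low, at 5.71 and 3.03 CPM in FAP-like and 7.57 and 4.11 in MuSC-like cells. The MuSC-like values of Lama3 and Lamc3 rest on few UMIs. RNA of FAP markers was read outside FAP-like cells, at a median of 0.0601 and 0.0431 times the FAP-like level in MuSC-like cells. The median was 0.117 and 0.0926 times in Schwann-like cells and 0.0311 and 0.083 times in smooth muscle-like cells. The part of such RNA in the laminin levels of these types was not tested.

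**Figure D1:**
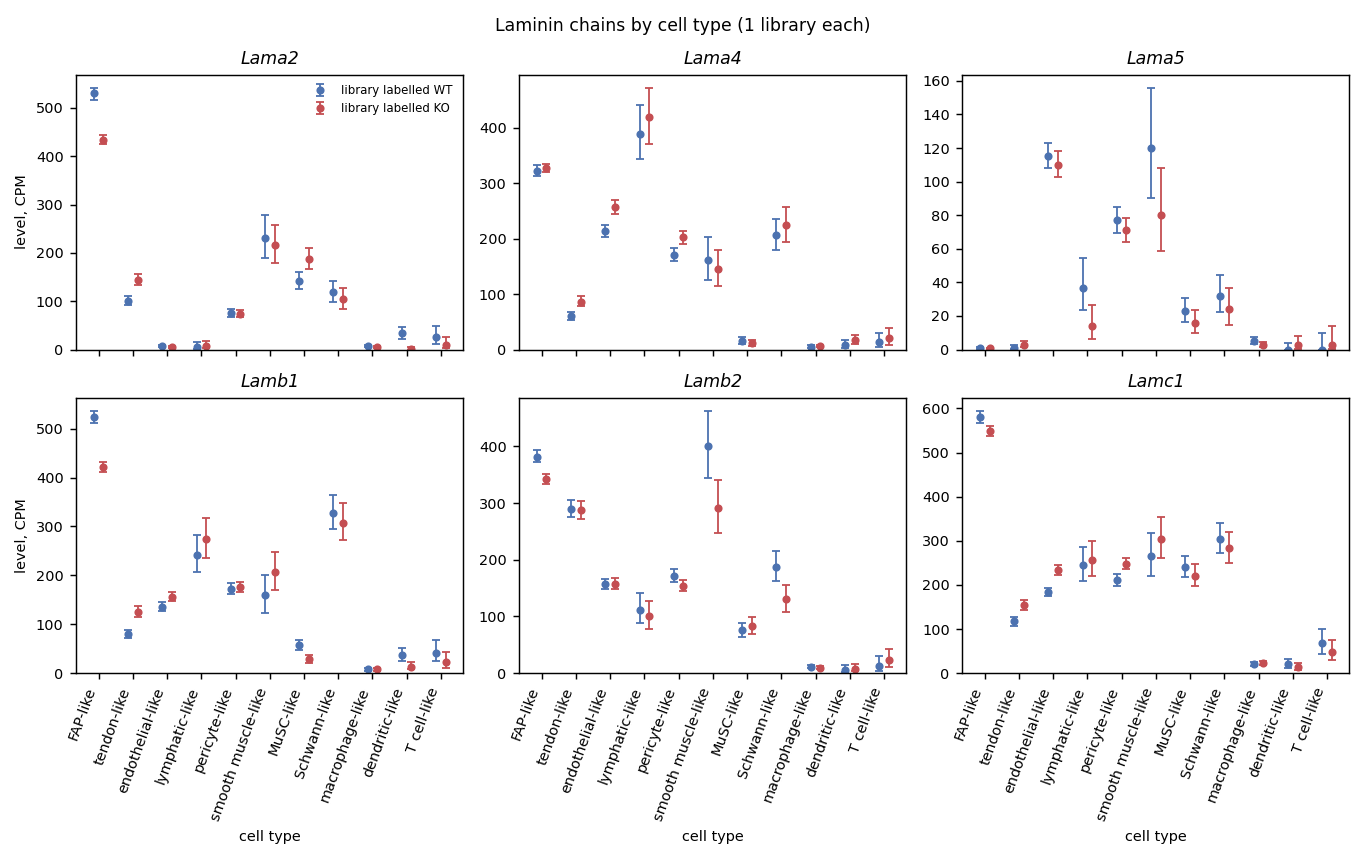
Level of 6 laminin genes (CPM, vertical axis from 0) in 11 cell types (horizontal axis) in the libraries labelled WT and KO, 1 library each; points are levels of summed UMIs and bars are exact 95% Poisson intervals. Lama2, Lamb1 and Lamc1 are highest in FAP-like cells, whereas Lama5 stands at 0.838 and 0.702 CPM there and at 115 and 110 CPM in endothelial-like cells.

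The receptors divided by lineage. Itgb1, the beta subunit shared by most laminin and collagen receptors, was read in all 11 types, from 235 CPM in dendritic-like cells of the library labelled KO to 1470 in smooth muscle-like cells of the library labelled WT. Itga6, a laminin receptor subunit, stood at 823 and 1140 CPM in endothelial-like cells, 527 and 746 in pericyte-like cells, 362 and 345 in Schwann-like cells and 216 and 279 in lymphatic-like cells. Its level in smooth muscle-like cells, where the endothelial markers stood at 0.0469 and 0.0676 times their endothelial level, was 47.9 and 62.6 CPM. The level in the pericyte-like cluster thus lay between those of endothelial-like and smooth muscle-like cells. The part of endothelial RNA or of paired droplets in it was not tested. Itga7, the laminin receptor subunit of muscle, was highest in smooth muscle-like cells (294 and 259 CPM), at 3.02 and 2.78 times the next type, MuSC-like cells (97.3 and 93.1). Itga3, the third laminin receptor subunit, was low everywhere, with 14.1 and 9.22 CPM in endothelial-like and 15.2 and 9.24 in lymphatic-like cells. In the library labelled KO its highest type was dendritic-like cells, at 1.17 times the next. Itgb4, which pairs with the alpha 6 subunit, stood at 156 and 131 CPM in Schwann-like cells and at 69.9 and 66.2 in lymphatic-like cells, and at most 7.85 in the other 9 types. Schwann-like cells therefore held RNA for both subunits of that receptor.

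Collagen receptor subunits were spread over different cells. Itga1 stood at 816 and 962 CPM in smooth muscle-like, 577 and 772 in pericyte-like, 556 and 763 in endothelial-like and 335 and 471 in Schwann-like cells, but at 33.4 and 29.8 in FAP-like and 51.2 and 59.4 in tendon-like cells. Itga11 was read in FAP-like and tendon-like cells, at 59.9 and 63.1 CPM and at 50.6 and 77.9, with at most 8.94 CPM in every other type. Itga10 was highest in tendon-like cells (26.3 and 25.7 CPM), and Itga2 stood at 69.1 and 62.2 CPM there and at 46.9 and 83.7 in Schwann-like cells. Itga1 was thus highest in cells of the vessel wall and Itga11 in fibroblast types.

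Among the RGD-binding subunits, Itga5, the fibronectin receptor subunit, was broad, with 132 and 132 CPM in FAP-like, 115 and 167 in macrophage-like and 98.0 and 111 in endothelial-like cells. Itgav stood at 249 and 197 CPM in Schwann-like, 134 and 163 in lymphatic-like and 116 and 126 in FAP-like cells, but at 15.8 and 17.5 in endothelial-like cells. Its beta partners took separate places. Itgb5 stood at 163 and 167 CPM in FAP-like, 150 and 137 in tendon-like and 100 and 94.8 in macrophage-like cells. Itgb8, whose dimer with the alpha v subunit binds latent TGF-beta, stood at 218 and 319 CPM in Schwann-like cells, 20.5 and 15.9 times the next type. Itgb3 was highest in T cell-like cells (47.1 and 52.6 CPM, on 18 and 21 UMIs), and stood at 39.5 and 26.2 in lymphatic-like, 28.9 and 26.5 in FAP-like and 21.6 and 34.4 in Schwann-like cells. Itga8 was highest in smooth muscle-like (50 and 41.1 CPM) and tendon-like cells (27.9 and 38.4). Itga9 was highest in lymphatic-like cells (207 and 200 CPM), where the alpha 9 subunit is known for its part in valves, and next in macrophage-like cells (59.4 and 48.4). Itga2b, the platelet subunit, was low, at 18.3 and 16.4 CPM in tendon-like and 12.3 and 14.6 in FAP-like cells.

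Leukocyte integrins were read in leukocytes. Itgb2 stood at 181 and 162 CPM in macrophage-like, 160 and 155 in dendritic-like and 136 and 168 in T cell-like cells, with intervals that overlapped among the 3 types in both libraries, and at most 4.56 CPM in the other 8 types. Its alpha partners differed between these cells. Among the 11 types, Itgam (CD11b) was highest in macrophage-like cells (145 and 197 CPM) and Itgax (CD11c) in dendritic-like cells (63.9 and 88). Itgal (CD11a) was highest in T cell-like cells (290 and 331). Cells outside the 11 types that held more of these are given below. Itga4 stood at 153 and 219 CPM in dendritic-like, 154 and 165 in T cell-like and 99.2 and 93.1 in macrophage-like cells. Its partner Itgb7, part of the gut-homing receptor, stood at 324 and 243 CPM in T cell-like and 242 and 248 in dendritic-like cells, but at 5.34 and 6.81 in macrophage-like cells. Itgam, Itgax, Itgal and Itgad lie on chromosome 7 in the GENCODE annotation of the same build; Itgam (128062640 to 128118491) and Itgax (128129547 to 128150657) are neighbors.

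**Figure D2:**
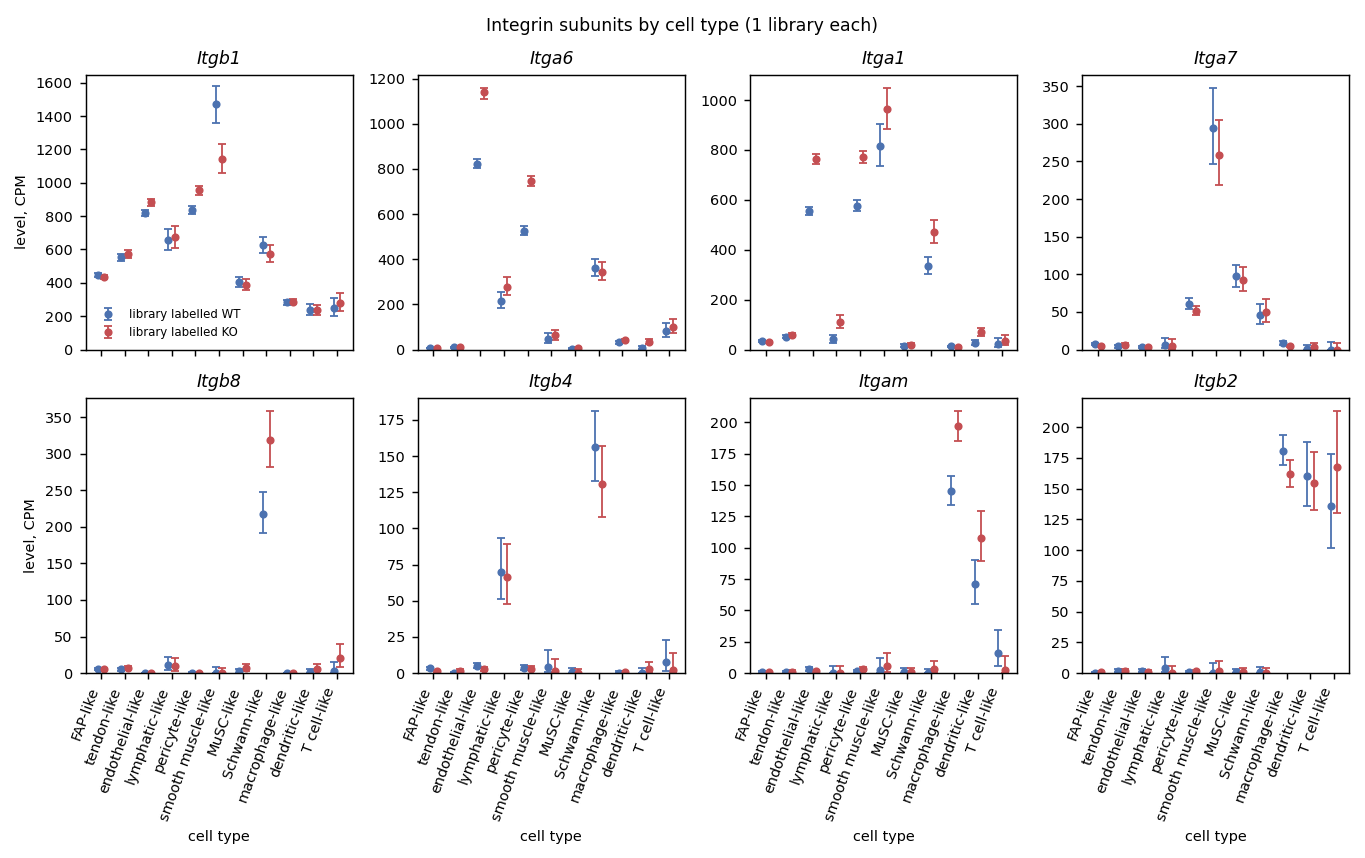
Level of 8 integrin genes (CPM, vertical axis from 0) in 11 cell types (horizontal axis) in the libraries labelled WT and KO, 1 library each; points are levels of summed UMIs and bars are exact 95% Poisson intervals. Itgb1 is read in all types, Itga7 is highest in smooth muscle-like cells (294 and 259 CPM), and Itgb2 is read in the 3 leukocyte types and at 4.56 CPM or less in the other 8.

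Of the 33 members with at least 100 UMIs over the named types, 6 led in 1 type. This means at least 2 times the next of the 11 types in both libraries. They were Itgal in T cell-like, Itgax in dendritic-like, Lama2 in FAP-like, Itga7 in smooth muscle-like, Itga9 in lymphatic-like and Itgb8 in Schwann-like cells. Over all 13072 genes so read the share was 13.4%, a background near the members' count.

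**Figure D3:**
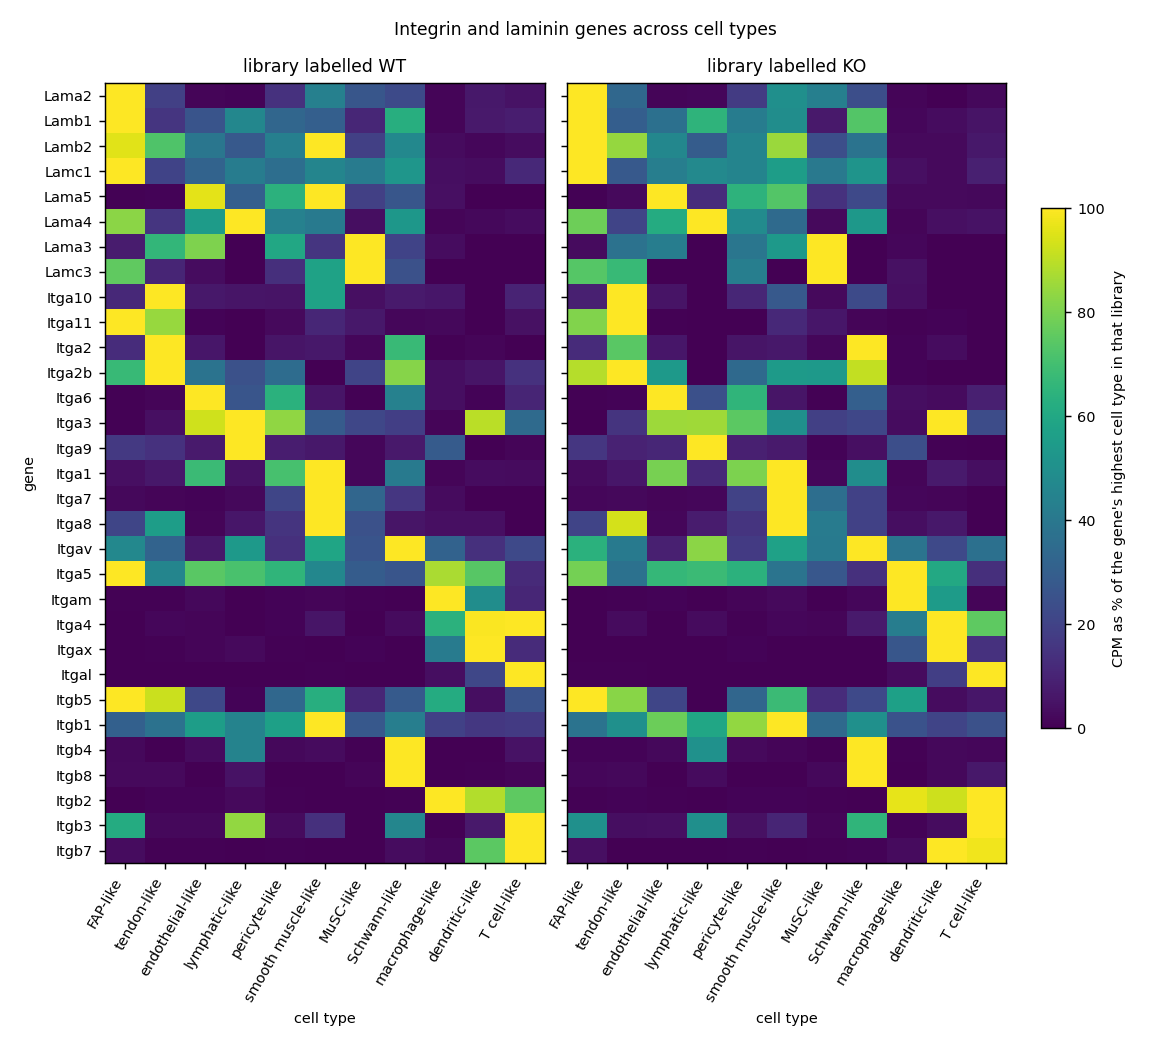
Level of 31 of the 32 members with at least 100 UMIs in a cell type, 1 not being reported here (rows, laminins first, then integrin alpha and beta subunits) in 11 cell types (columns), for the library labelled WT (left) and KO (right); color gives the CPM as a percentage of the gene's highest type in that library. Lama2, Lamb1 and Lamc1 peak in FAP-like cells and Itgal, Itgax and Itgam in T cell-like, dendritic-like and macrophage-like cells, in both libraries.

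The members also varied among clusters of 1 cell type. FAP-like cells fell into 4 clusters, led by Hsd11b1 (450 and 516 cells), Sfrp4 (652 and 892), Krtdap and Pi16 (343 and 483) and Cyp2f2 (241 and 261). The Hsd11b1 cluster held the laminins of the muscle basement membrane at their highest: Lama2 stood at 1030 and 757 CPM, Lamb1 at 1030 and 771 and Lamc1 at 948 and 832, against 331 and 322, 156 and 162 and 282 and 266 in the Cyp2f2 cluster, the lowest of the 4. Lamc3 was read at 23.1 and 12 CPM in the Hsd11b1 cluster and at 0 to 2.84 in the other 3. Itga11 was also highest there, at 84.8 and 79.7 CPM. The Krtdap cluster was highest in Itgb3 (50.5 and 54.2 CPM), Itga2 (16.2 and 19.7) and Itgb7 (44.8 and 40.6, against at most 4.90 in the other 3). The Cyp2f2 cluster was highest in Itga1 (60.7 and 52.3 CPM), Itga6 (26.4 and 21.6) and Itgb8 (10.4 and 10.2). For these 11 members the highest cluster was the same in both libraries and at least 2 times the lowest in each. Lamb2 was lowest in the Hsd11b1 cluster, at 286 and 300 CPM, against 553 and 395 in the Cyp2f2 cluster.

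**Figure D4:**
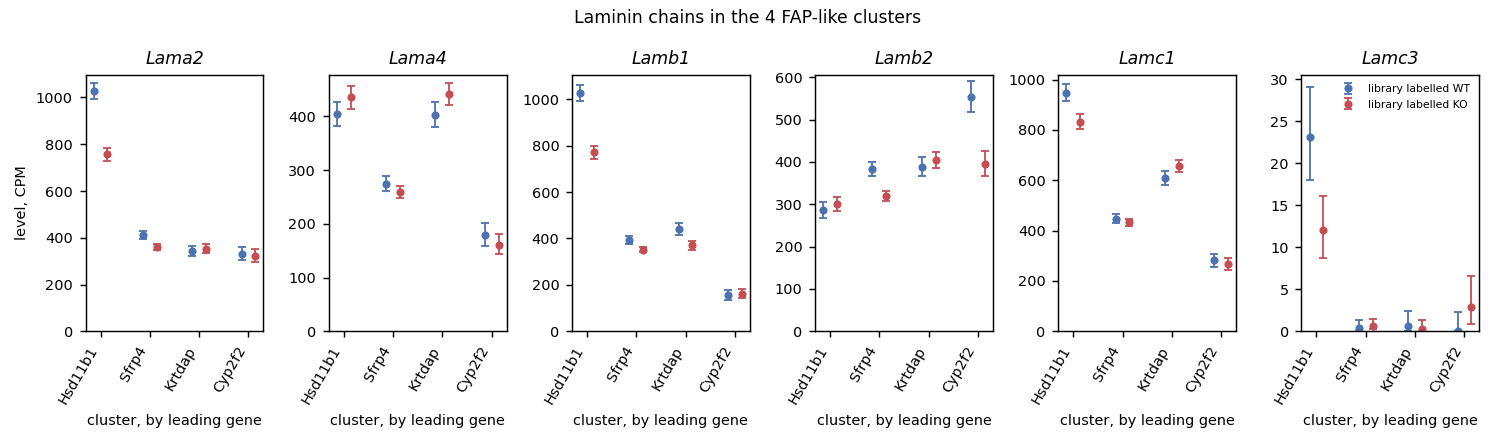
Level of 6 laminin genes (CPM, vertical axis from 0) in the 4 FAP-like clusters, named by a leading gene (horizontal axis), in the libraries labelled WT and KO; bars are exact 95% Poisson intervals. Lama2, Lamb1, Lamc1 and Lamc3 are highest in the Hsd11b1 cluster of both libraries, and there Lama2, Lamb1, Lamc1 and Lamc3 are lower in the library labelled KO.

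Macrophage-like cells held a cluster led by Mucl1, Cd209f and Fcna (488 and 619 cells), genes of resident macrophages, and a cluster led by Il10 and Ms4a7 (339 and 386). The Il10 cluster was higher in Itgax (46.2 and 42.9 CPM, against 2.95 and 1.95), Itgav (117 and 106, against 30.5 and 41.6), Itga5 (153 and 221, against 69.4 and 107) and Itgb5 (136 and 128, against 57.1 and 57.2). The Mucl1 cluster was higher in Itga1 (19.7 and 21.0 CPM, against 6.49 and 3.84) and Lamb2 (16.2 and 12.8, against 7.71 and 5.59). Schwann-like cells held a cluster led by Col20a1 (83 and 58 cells) and a second, larger cluster (112 and 94). The larger cluster was higher in Itga6 (574 and 645 CPM, against 188 and 105), Itgb4 (264 and 188, against 66.7 and 84.6) and Lamb1 (485 and 562, against 200 and 105), and the Col20a1 cluster in Itga1 (530 and 770, against 97.8 and 98.0) and Itga2 (71.8 and 122, against 16.6 and 36.1). The subunits of the laminin receptor and those of collagen receptors were thus highest in different Schwann-like clusters. The contrast was wider in the library labelled KO for Itga6 (6.13 times, against 3.05) and Lamb1 (5.34 times, against 2.42), and narrower for Itgb4 (2.23 times, against 3.96). In endothelial-like cells no member differed 2 times between the 2 clusters in both libraries.

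Between the libraries few members differed by 1.5-fold. In FAP-like cells 1 of 22 members with at least 100 UMIs did, where 7.74% of all genes did. The counts were, in tendon-like cells 3 of 16 (8.77% of all genes), in endothelial-like cells 1 of 15 (6.13%), in lymphatic-like cells 0 of 9 (10.3%), in pericyte-like cells 1 of 15 (6.65%), in smooth muscle-like cells 0 of 11 (14.5%), in MuSC-like cells 1 of 8 (19.9%), in Schwann-like cells 1 of 12 (9.8%), in macrophage-like cells 0 of 14 (8.88%), in dendritic-like cells 2 of 9 (12%) and in T cell-like cells 0 of 5 (18%). The counts in tendon-like and dendritic-like cells were above the background by 1 or 2 genes, and the others were near or below it. Since there are no replicate libraries, none of these counts says how much 2 libraries of the same genotype would differ. A list of 15 immediate-early genes, which dissociation of tissue induces, stood higher by label KO in most types. Its summed level was 15600 and 21100 CPM in FAP-like, 28600 and 35500 in endothelial-like, 12100 and 21300 in MuSC-like and 24100 and 24400 in macrophage-like cells. Its part in the differences that follow was not tested.

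In FAP-like cells the alpha and beta chains of the muscle laminin were lower in the library labelled KO. Lama2, read at 6955 UMIs (530 CPM) and 8038 UMIs (434 CPM), had a log2 ratio (KO/WT) of -0.29 (95% interval, -0.33 to -0.24). For Lamb1 (523 and 421 CPM) it was -0.31 (-0.36 to -0.27). Lamb2 had a log2 ratio of -0.16 (-0.21 to -0.10) and Lamc1 of -0.08 (-0.13 to -0.04), while Lama4 stood at 322 and 327 CPM. The median over the 22 members was -0.11, and over all genes -0.06, which lay within the interval of Lamc1. Lamc3 was the member past 1.5-fold, at 75 and 56 UMIs and a log2 ratio of -0.92 (-1.44 to -0.40), but not by the mean over cells. The differences were not the same in every cluster. In the Hsd11b1 cluster Lama2 had a log2 ratio of -0.44, Lamb1 of -0.41 and Lamc3 of -0.94; in the Cyp2f2 cluster Lama2 had -0.04 and Lamb1 0.06, and there Lamb2 had -0.49. In the Krtdap cluster Lama2 had a log2 ratio of 0.05 and Lamb1 of -0.25. The Sfrp4 cluster, the largest, had log2 ratios of -0.18 for Lama2, -0.16 for Lamb1 and -0.26 for Lamb2. Lamc1 had -0.19 in the Hsd11b1 cluster, -0.08 in the Cyp2f2 cluster, -0.05 in the Sfrp4 cluster and 0.11 in the Krtdap cluster. The Hsd11b1 cluster held 450 of the 1686 and 516 of the 2152 FAP-like cells, so its share of the cells differed as well.

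The other basement membrane genes were read alongside. In FAP-like cells 13 of the 14 had at least 100 UMIs. Of these, 10 were lower and 3 (Nid1, Sparc and Ntn4) higher in the library labelled KO. The median log2 ratio was -0.26 over the 13 and -0.06 over all genes, so genes at large also leaned lower. Only Col4a3 (16.3 and 10.8 CPM, log2 ratio -0.59), 1 of the 13, was past 1.5-fold, where 7.74% of all genes were. Col4a1, a chain of type IV collagen, had a log2 ratio of -0.35 (-0.38 to -0.32) at 1470 and 1150 CPM, with Hspg2 (perlecan) at 789 and 645. Nid1 (nidogen, the link between laminin and type IV collagen) went the other way, at 1690 and 1840 CPM, as did Sparc, at 9180 and 9840. Of 12 other integrin ligands read in FAP-like cells, 3 were past 1.5-fold (7.74% of all genes were), all higher in the library labelled KO: Postn (periostin; 873 and 1340 CPM), Thbs1 (thrombospondin 1; 702 and 1090) and Icam1 (106 and 194). Fn1 (fibronectin) had a log2 ratio of 0.52 (0.50 to 0.54) at 2350 and 3360 CPM, just under that limit. Of the 12 ligands 8 were higher and 4 lower in the library labelled KO, with a median log2 ratio of 0.23.

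In tendon-like cells 4 laminin genes were higher in the library labelled KO. Lamb1 had 404 and 543 UMIs, or 80.4 and 126 CPM, and its log2 ratio was 0.64 (0.45 to 0.83). Lama2 stood at 101 and 145 (0.52, 0.35 to 0.70), Lama4 at 60.5 and 86.5 (0.51, 0.29 to 0.74) and Lamc1 at 118 and 154 (0.39, 0.23 to 0.55). Lamb2 stood at 290 and 288 CPM. The collagen receptor subunit Itga11 was past 1.5-fold as well, at 50.6 and 77.9 CPM (0.62, 0.38 to 0.86), and Itga9 was lower, at 29.5 and 19.2 (-0.62, -1.02 to -0.22). The 7 FAP markers stood in tendon-like cells at a median of 0.109 and 0.199 times their FAP-like level, with a summed level of 80800 and 65100 CPM. The part of FAP-like RNA or cells in these ratios was not tested. Without integration of the libraries the log2 ratio of Lamb1 was 0.38, and with the members kept among the variable genes 0.36, both under 1.5-fold.

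In endothelial-like cells the receptor subunits Itga6 and Itga1 were higher in the library labelled KO. Itga6 had 6255 and 8152 UMIs, or 823 and 1140 CPM, and its log2 ratio was 0.47 (0.42 to 0.52). For Itga1 (556 and 763 CPM) it was 0.46 (0.40 to 0.51). Their partner Itgb1 had a log2 ratio of 0.11 (0.06 to 0.16). Of the laminins, Lamc1 had a log2 ratio of 0.35 (0.24 to 0.45), Lama4 of 0.27 (0.17 to 0.36) and Lamb1 of 0.20 (0.07 to 0.32), whereas Lama5 stood at 115 and 110 CPM. The median was 0.18 over the 15 members and 0.03 over all genes. Both endothelial-like clusters had the direction: Itga6 had log2 ratios of 0.50 and 0.31 and Itga1 of 0.48 and 0.35 in the clusters led by Slc26a10 and Cytl1. Itga3, the member past 1.5-fold, was lower, at 107 and 66 UMIs (-0.61, -1.08 to -0.16), and was under 1.5-fold without integration, at resolutions 0.4 and 1.2 and with the members kept among the variable genes. In pericyte-like cells, where the endothelial markers were read, Itga6 had a log2 ratio of 0.50 (0.43 to 0.57), Itga1 of 0.42 (0.35 to 0.49) and Itga3 of -0.66 (-1.24 to -0.09). Whether these ratios were separate from the endothelial-like ones was not tested. Itga1 was also higher in smooth muscle-like cells (0.24, 0.04 to 0.43) and Schwann-like cells (0.49, 0.28 to 0.70). Itgb1 was lower in smooth muscle-like cells (-0.36, -0.52 to -0.20).

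In macrophage-like cells no member passed 1.5-fold. Itga5, with 518 and 910 UMIs, had a log2 ratio of 0.54 (0.38 to 0.70), and Itgam, with 652 and 1068 UMIs, one of 0.44 (0.30 to 0.58). Itgb2, the partner of the alpha M subunit, did not follow, with a log2 ratio of -0.17 (-0.30 to -0.03). Itga5 had log2 ratios of 0.63 in the Mucl1 cluster and 0.53 in the Il10 cluster, and Itgam of 0.38 and 0.49, so both clusters had the direction of both genes. In dendritic-like cells Itgam (68 and 120 UMIs) had a log2 ratio of 0.60 (0.15 to 1.05) and Itga1 (26 and 79 UMIs) one of 1.38 (0.72 to 2.08), both past 1.5-fold, and Itga4 one of 0.52 (0.22 to 0.82).

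MuSC-like cells, which sit under the laminin of the muscle fiber, showed 1 member past 1.5-fold. Lamb1 had 105 and 41 UMIs there, a log2 ratio of -1.02 (-1.57 to -0.48), but in the library labelled WT 5 cells held 50 of the 105 UMIs, against 12 of 41 in the library labelled KO. Without these cells the log2 ratio was -0.60. At resolution 0.4 it was -0.34, and by the mean over cells it was -0.47. The levels of 56.8 and 28.1 CPM compare with 523 and 421 in FAP-like cells, whose markers were read in MuSC-like cells at 0.0601 and 0.0431 times their FAP-like level. Lama2 stood at 142 and 188 CPM (0.40, 0.15 to 0.65). The receptor subunits of these cells showed no difference beyond counting error, with log2 ratios of -0.06 (-0.40 to 0.27) for Itga7 and -0.05 (-0.21 to 0.11) for Itgb1. Dag1, which encodes dystroglycan, the laminin receptor that is not an integrin, stood at 1130 and 1370 CPM in MuSC-like cells and at 1230 and 1400 in Schwann-like cells, and at most 250 in the other 9 types. Of a list of non-integrin laminin receptors and proteins of the dystroglycan complex, 6 genes were read in MuSC-like cells. None of the 6 passed 1.5-fold, where 19.9% of all genes did. Of the 6, 5 were higher in the library labelled KO, 3 of them beyond counting error, and 1 was lower, also beyond it. In Schwann-like cells Itga2, with 50 and 73 UMIs, was past 1.5-fold at a log2 ratio of 0.83 (0.30 to 1.38), Itgb8 had a log2 ratio of 0.55 (0.29 to 0.81) and Lamb2 of -0.53 (-0.87 to -0.19).

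**Figure D5:**
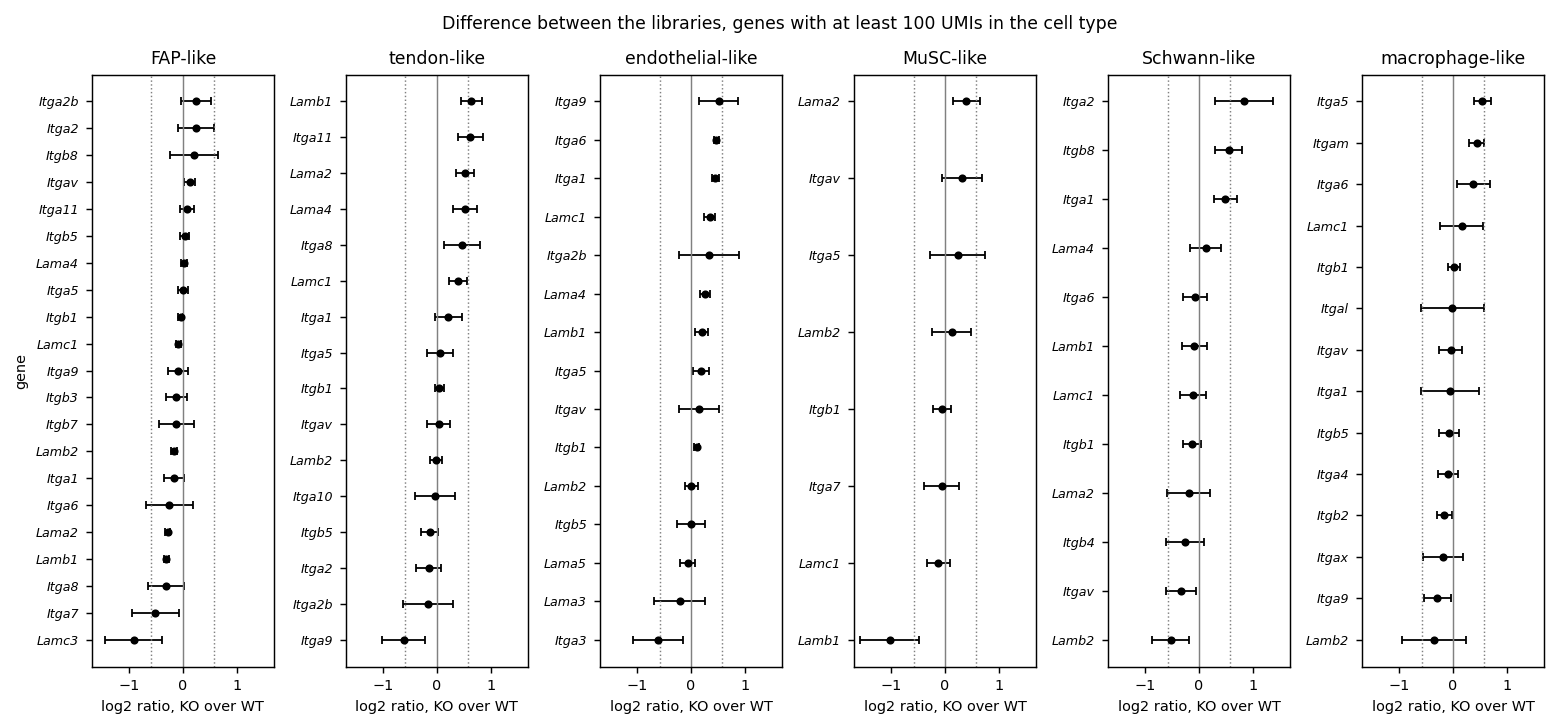
Log2 ratio of KO over WT, by label, of the level (CPM of summed UMIs; horizontal axis) of the reported members with at least 100 UMIs in each of 6 cell types (rows, sorted within a panel); bars are exact 95% intervals that cover counting error only, and dotted lines mark 1.5-fold. Lama2 and Lamb1 lie below 0 in FAP-like cells (-0.29 and -0.31) and above 0 in tendon-like cells (0.52 and 0.64), and Itga6 (0.47) and Itga1 (0.46) lie above 0 in endothelial-like cells.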

How the data were processed

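Cells of each muscle were read with a 10x 5′ kit, and the submitters' processing notes name Cell Ranger 2.1.1 and the mouse build mm10. The authors normalized with Seurat and removed doublets and cells rich in mitochondrial RNA. The deposited table holds the natural log of 1 plus UMIs per 10000 for 19169 genes in 13432 cells, and the barcode suffix names the library. UMIs were recovered from it (largest distance of a value from a whole number, 0.247). Cells of both libraries were clustered without the members in R 4.3.3 with Seurat 5.3.0 (2000 variable genes, 30 components, Harmony's steps rewritten in R with theta 2, 20 neighbors, resolution 0.8). Clusters took the name of the marker list with the highest mean fold. They stayed unnamed with fewer than 3 of its markers detected, with its markers under 25% of their highest cluster, with more markers of another lineage than of their own among the 10 leading genes, or at low depth with none there. Clusters with fewer than 3 own markers among the 10 leading genes were also left out as mixed when another type's markers stood high (25% or more for another lineage). Pericyte-like and smooth muscle-like clusters had 4 and 5 such markers and kept their names. Part of these rules was set after clusters had been seen. Scrublet (scanpy 1.11.5) called 100 and 118 doublets, which were kept and left out as an alternative. Levels are CPM of UMIs summed per type and library with exact Poisson intervals; log2 ratios of KO over WT have Clopper-Pearson intervals (95%). Genes needed 100 UMIs in a type for a ratio, and 1.5-fold was the limit. Values were given for members with 100 UMIs in a type; between libraries, for members past 1.5-fold and the highest members, and other members were chosen after their values were seen. Members and gene lists were chosen with earlier results of these data known. Some items are not reported here. The procedure was tested on simulated data. Promoters are RefSeq's, build GRCm38.p6. Python 3.11.15, numpy 2.4.6, scipy 1.17.1 and pandas 2.3.3 were used.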

Additional observations from a re-analysis of the deposited data

Results flagged for a closer look

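Lamb1 was flagged because it stood on opposite sides of 0 in separate cell types: its log2 ratio of KO over WT was 0.64 in tendon-like cells and -1.02 in MuSC-like cells. The difference between these ratios was not tested. The MuSC-like value rests on 146 UMIs and was -0.60 without the 5 cells of each library that held most of them and -0.34 at resolution 0.4. The tendon-like value was 0.73 without such cells, but 0.38 without integration and 0.36 with the members kept among the variable genes, both under 1.5-fold.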

How the results depend on the processing

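Each genotype had 1 library, so no spread between animals is known, and intervals cover counting error only. No paired analysis was possible because each group had 1 library. Of 77 comparisons of a count of members with its main value under an alternative, 48 were within 1.5 times and 29 were not. Counts of members past 1.5-fold were small (0 or 1 in these types), so 1 gene decides them; the cause of each shift was not tested. The counts were 2 in FAP-like, 0 in endothelial-like and 0 in MuSC-like cells at resolution 0.4, and 0 in endothelial-like and pericyte-like cells at resolution 1.2. Without integration they were 0 in endothelial-like and 2 in Schwann-like cells, and with the members kept among the variable genes 0 in endothelial-like cells. By the mean over cells of UMIs per 10000 they were 0 in FAP-like, pericyte-like and MuSC-like and 2 in macrophage-like cells, and with clusters of 2 lineages kept 1 in macrophage-like cells. With at least 50 UMIs they were 3 in FAP-like, 2 in endothelial-like, 1 in macrophage-like, 2 in MuSC-like and 3 in Schwann-like cells. With no minimum, where single UMIs pass, they were 10 in FAP-like, 11 in endothelial-like, 11 in pericyte-like, 13 in macrophage-like, 18 in MuSC-like and 13 in Schwann-like cells. At 2-fold they were 0 in FAP-like, endothelial-like, pericyte-like and Schwann-like cells. At 3 times the next type, 3 members had a leading type. Of 301 comparisons of single log2 ratios, 288 stayed within the counting interval and 13 did not, and none reversed; by the mean over cells Lama2 was -0.20 and Lamb1 -0.27 in FAP-like cells, Itga6 0.39 in endothelial-like cells, Itga1 0.21 in Schwann-like cells and Itgam 0.25 in macrophage-like cells. Leaving out the 5 cells with most UMIs, an alternative chosen after seeing the data, gave -0.42 for Itga6 in Schwann-like cells, against -0.07.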

Other observations

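Cells outside the 11 named types held integrins too. An unnamed cluster (137 and 177 cells) was led by S100a9, a gene of neutrophils and monocytes. It stood above the macrophage-like and dendritic-like cells in Itgb2 (406 and 344 CPM), Itgam (246 and 299) and Itgax (185 and 154). An unnamed cluster led by Mcpt4, a mast cell protease (41 and 56 cells), held Itgb7 at 330 and 414 CPM. An unnamed cluster led by Lypd2 (14 and 20 cells) held both subunits of the hemidesmosome integrin, Itgb4 at 627 and 468 CPM and Itga6 at 485 and 1040. NK-like cells (29 and 26) held Itgal at 403 and 469 CPM and Itgax at 119 and 85.2, the latter on 16 and 10 UMIs.

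Genes that work with the members were read from lists. Of 17 integrin activators and adaptors with at least 100 UMIs in FAP-like cells, 2 were past 1.5-fold, where 7.74% of all genes were. Fermt2 (kindlin-2, an integrin activator) had a log2 ratio of -0.59 (-0.65 to -0.54) at 398 and 264 CPM. Fermt3, the kindlin of blood cells, went the other way and was low, at 4.19 and 8.75 CPM. Fermt2 also had log2 ratios of -0.32 in endothelial-like, -0.39 in MuSC-like and -0.78 in macrophage-like cells. No tetraspanin, a class of integrin partners, passed 1.5-fold in FAP-like, endothelial-like, MuSC-like or macrophage-like cells. The genes read were 4, 5, 5 and 5, and 7.74%, 6.13%, 19.9% and 8.88% of all genes passed there. Other integrin ligands past 1.5-fold numbered 6 of 12 in tendon-like cells (8.77% of all genes) and 3 of 8 in MuSC-like cells (19.9%), all higher in the library labelled KO. Those of the MuSC-like cells were Vcam1 (294 and 524 CPM), Tnc (48.1 and 95.2) and Icam1 (23.3 and 40.4). In macrophage-like cells Spp1 (osteopontin) stood at 156 and 236 CPM, Thbs1 at 98.3 and 167, and Mfge8, a ligand of the alpha v integrins, at 64.5 and 29.1 (log2 ratio, -1.15, -1.44 to -0.86). A further list held non-integrin laminin receptors and proteins of the dystroglycan complex, which are not all receptors. In Schwann-like cells 1 of its 6 genes with at least 100 UMIs was past 1.5-fold (9.8% of all genes were). It was Dmd (dystrophin), at 205 and 326 CPM.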
